A study of Mus musculus with 2 samples.

Results

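Matrix metalloproteinases (MMPs) and the tissue inhibitors of metalloproteinases (TIMPs) were measured in sorted mouse Langerhans cells, which take up and present antigen in the epidermis. The 10 genes were taken by symbol from a table of 55487 genes: Mmp2, Mmp3, Mmp9, Mmp10, Mmp12, Mmp13 and Mmp14, and the inhibitor genes Timp1, Timp2 and Timp3. Each symbol matched 1 Ensembl gene. The series concerns the serotonin 2A receptor, psoriatic inflammation and IL-23. Its data here were RNA sequencing counts from a single group of 2 samples, labelled HTR2A-/-, so both carried the receptor deletion. Cells had been sorted from digested ears by CD207 (langerin) and MHC class II, and then treated for 24 hours with imiquimod, a Toll-like receptor 7 agonist, and an agent labelled a-CD40L. The labels give neither strain, age nor the design of the deleted allele, and do not say whether the samples came from separate mice, so differences between them may be technical. The series title calls the cells monocyte-derived.

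The library whose column carries the number 2 is called library 2 and the other library 1. They held 42264685 and 69925160 counts. With 1 group there was no comparison of genotypes or treatments, and every ratio below is library 2 over library 1, a measure of how far replicates differed. Langerhans cell markers were high (9 of 9 above background, Cd207 among them), and so were keratinocyte markers, of which 9 of 10 were above background. Also above background in both libraries were 9 of 10 macrophage and 6 of 8 T cell markers, against 47.3% of protein-coding genes. Htr2a had 117 counts in library 2 and 77 in library 1, at percentiles 33.4 and 44.5 of the background genes described next. Which exons the deletion removed is not stated, so these counts do not check the genotype.

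MMPs are secreted or membrane-bound zinc enzymes that cut collagens, laminins and other proteins of the extracellular matrix, and also free or inactivate cytokines and chemokines. They are made as inactive precursors whose prodomain must be removed, and TIMPs block the active enzymes. In skin, Langerhans cells use MMPs to pass the basement membrane when they leave the epidermis, and keratinocytes and dermal cells make MMPs during wound repair and inflammation. The transcript levels below say nothing of how much enzyme was activated or inhibited.

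Of the 10 genes, 9 were above background in both libraries, against 47.3% of protein-coding genes. In library 2 alone 10 passed, against 50.4% of protein-coding genes, and in library 1 alone 9, against 56.2%. Background here means the 95th percentile of 1135 olfactory receptor genes, which was 1.58 CPM (the count scaled to the total of its library) per kb of exon in library 2 and 0.761 in library 1. The exception was Mmp10, which passed in library 2 and not in library 1. In level per kb of exon, Mmp14 came first in both libraries and Mmp10 last. Among the 8 genes ranked between them, with means of 3.59 to 8.12 CPM per kb, no gene differed from its neighbour in the order by more than the larger of their SDs. Mmp3 ranked 2nd in library 2 and 8th in library 1, and Timp1 ranked 9th and 2nd.

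**Figure D1:**
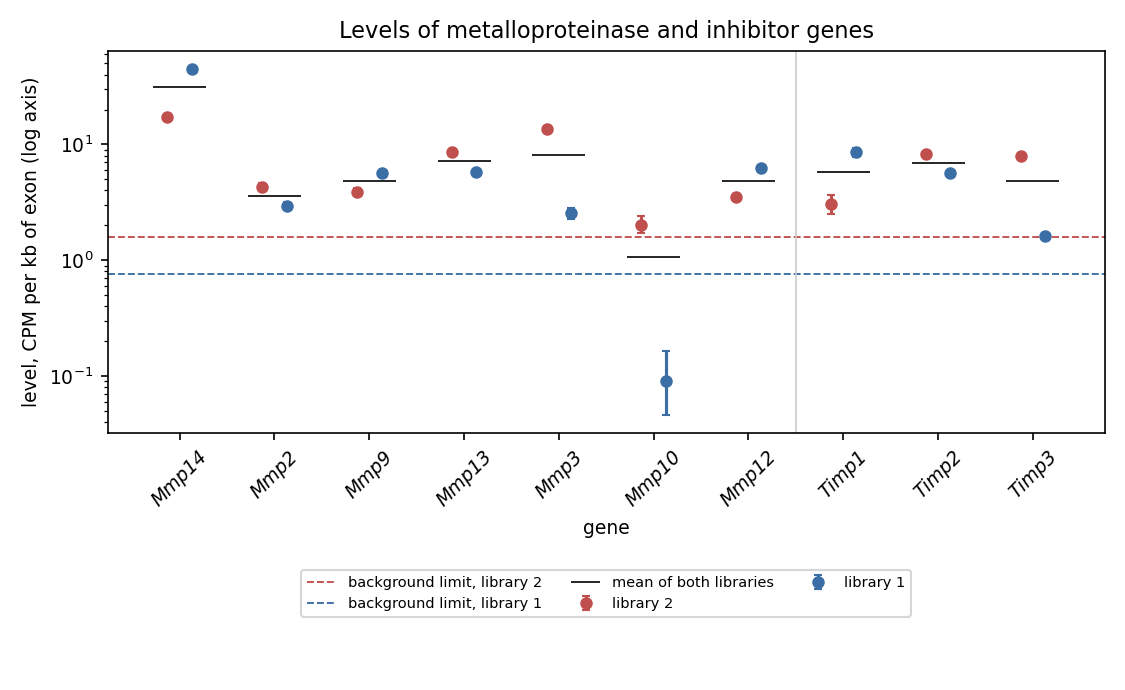
Level of each gene in CPM per kb of exon (log axis), with library 2 left of library 1, bars for the exact 95% Poisson interval of the count, a black line for the mean of both libraries, and dashed lines for the background limit of each library. Mmp14 is highest in both libraries, and Mmp10 lies under the limit in library 1.

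Mmp14 encodes the membrane-anchored enzyme MT1-MMP, which cuts fibrillar collagen at the cell surface and activates the precursor of MMP2. Mmp14 (ENSMUSG00000000957, GRCm38 chromosome 14, 54431612 to 54445364) had 4382 counts in library 2 and 18729 in library 1, or 103.7 CPM in library 2, with an exact 95% counting interval of 100.6 to 106.8, against 267.8 CPM in library 1, with one of 264 to 271.7. Its level was 186 ± 116 CPM (SD, n = 2), and per kb it stood at percentile 92.3 of protein-coding genes in library 2 and 97.1 in library 1. Both libraries placed it high, and library 2 was lower by a log2 ratio of -1.87 (95% counting interval -1.92 to -1.82) after TMM scaling.

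Mmp2 encodes gelatinase A, which digests denatured collagen and basement membrane collagen, and whose precursor is docked to MT1-MMP through TIMP2. Mmp2 (ENSMUSG00000031740, chromosome 8, 92827291 to 92853420) was at 14.4 CPM in library 2, against 9.87 CPM in library 1, a mean of 12.1 ± 3.18 CPM (SD, n = 2). The log2 ratio after TMM scaling was 0.04 (-0.12 to 0.20), and edgeR's exact binomial test gave an adjusted p of 0.649. Within each library, Mmp14 exceeded Mmp2 per kb 4.08 times in library 2 (95% interval 3.75 to 4.45) and 15.4 times in library 1 (14.2 to 16.6). By contrast, the ratio of Timp2 to Mmp2 per kb was 1.92 (1.74 to 2.12) in library 2 and 1.93 (1.77 to 2.12) in library 1. Within this trio the libraries thus differed in Mmp14, and the balance of Timp2 and Mmp2 differed by less than counting error.

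Mmp9 encodes gelatinase B, an enzyme of leukocytes and activated keratinocytes. Mmp9 (ENSMUSG00000017737, chromosome 2, 164940780 to 164955850) had 581 counts in library 2 and 1409 in library 1, or 13.7 and 20.2 CPM (16.9 ± 4.53, SD, n = 2). The TMM-scaled log2 ratio was -1.05 (-1.19 to -0.91), just past a 2-fold difference, and -0.55 with scaling by total counts. Against Mmp2, the other gelatinase gene, Mmp9 stood at 0.912 times its level per kb in library 2 (0.812 to 1.02) and 1.95 times in library 1 (1.77 to 2.13). The 2 gelatinase genes were therefore level in library 2 within counting error, and Mmp9 was the higher in library 1.

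Mmp12, Mmp13, Mmp3 and Mmp10 belong to a run of MMP genes on chromosome 9 that holds 10 of the family's genes in 427 kb. Mmp13 encodes a collagenase, Mmp3 and Mmp10 encode stromelysins 1 and 2, which have a broad range of matrix substrates, and Mmp12 encodes macrophage elastase. The stretches of 120 bases before their annotated start sites are shown because MMP genes of this cluster are textbook targets of AP-1, the Fos and Jun family of transcription factors, whose binding motif is TGANTCA. Sequences are from RefSeq (GRCm38.p6), 5′ to 3′, and capitals mark TGANTCA and TATAAA, the letters of a TATA box.
Mmp13 (chr9:7272394-7272513, plus strand): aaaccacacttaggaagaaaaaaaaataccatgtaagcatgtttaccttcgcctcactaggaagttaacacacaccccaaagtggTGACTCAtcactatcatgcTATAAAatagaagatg
Mmp12 (chr9:7347254-7347373, plus strand): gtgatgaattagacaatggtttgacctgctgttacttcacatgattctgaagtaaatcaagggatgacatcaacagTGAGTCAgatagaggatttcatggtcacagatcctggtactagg
Mmp3 (chr9:7445702-7445821, plus strand): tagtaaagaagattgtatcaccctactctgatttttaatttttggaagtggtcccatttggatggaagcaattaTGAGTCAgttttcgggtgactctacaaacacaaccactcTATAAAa
Mmp10 (chr9:7502222-7502341, plus strand): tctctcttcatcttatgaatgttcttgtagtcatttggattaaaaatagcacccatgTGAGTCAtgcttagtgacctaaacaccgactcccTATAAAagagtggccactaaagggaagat

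RefSeq windows from 250 bases before to 50 after the start were at hand for 8 of the 10 genes, with 2 windows for Mmp12. TGANTCA, which reads the same on both strands, was in a window of 4 of these 8 genes, the 4 shown above, and in 7.81% of all 32851 windows. Its first base lay 35 bases before the start in Mmp13, 44 in Mmp12 (the second window), 46 in Mmp3 and 63 in Mmp10. TATAAA on the strand of the gene was in the same 4 genes, against 8.32% of all windows (13.6% on either strand). In Mmp12 it began 4 bases past the annotated start and so lies outside the stretch shown. Both motifs together, which did not overlap in the 4 genes, were in 0.995% of all windows. The windows of Mmp14, Timp1, Timp2 and Timp3 held neither. Of the 10 genes of the cluster, 8 held TGANTCA, among them genes within background such as Mmp20 and Mmp7. A match describes letters, not a bound site.

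The 4 genes with the motif did not share a direction between the libraries. Mmp3 (ENSMUSG00000043613, 7445822 to 7455975) was at 24.7 CPM in library 2, against 4.56 CPM in library 1 (14.6 ± 14.2 CPM, SD, n = 2), a log2 ratio of 1.93 (1.75 to 2.12). Mmp10 (ENSMUSG00000047562, 7502352 to 7510240) had 148 counts in library 2 and 11 in library 1, or 3.50 CPM (2.96 to 4.11) and 0.157 CPM (0.0785 to 0.282). Its log2 ratio of 3.85 (3.09 to 5.01) was the highest of the 10 genes, but in library 1 it stood at percentile 21.6 of the background genes. Mmp10 was therefore detectable in library 2, at percentile 98.2 of background genes, and not above background in library 1. Per kb, Mmp3 exceeded Mmp10 6.74 times in library 2 (5.67 to 8.06) and 27.7 times in library 1 (15.3 to 56.1). The transcripts of these stromelysins share 50-base runs. Of the runs of Mmp3, 8.39% also occur in Mmp10 or Gm15244, and of those of Mmp10, 8.37% occur in Mmp3. A small part of the reads of each may thus be assigned to another of these genes. Mmp3 had 1043 counts in library 2 and 319 in library 1, so its misassigned reads could weigh more in the level of Mmp10. The part of such reads in the counts and ratio of Mmp10 was not tested.

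Mmp12 (ENSMUSG00000049723, 7344381 to 7369499) went the other way, with 25.2 CPM in library 2, against 45.2 CPM in library 1 (35.2 ± 14.1 CPM, SD, n = 2). The log2 ratio was -1.34 (-1.44 to -1.24) after TMM scaling and -0.84 by total counts. Its exons share 157 of 7237 bp with those of Mmp1b on the opposite strand, which had 63 counts in library 2 and 46 in library 1. Mmp13 (ENSMUSG00000050578, 7272514 to 7283331) was at 22.8 and 15.3 CPM (19.0 ± 5.28 CPM, SD, n = 2). Its log2 ratio was 0.07 (-0.05 to 0.20), with an adjusted p of 0.298 in edgeR's exact binomial test. Per kb, Mmp13 was at 0.622 times the level of Mmp3 in library 2 (0.569 to 0.680) and 2.26 times in library 1 (1.99 to 2.57), so the order of their levels reversed.

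**Figure D2:**
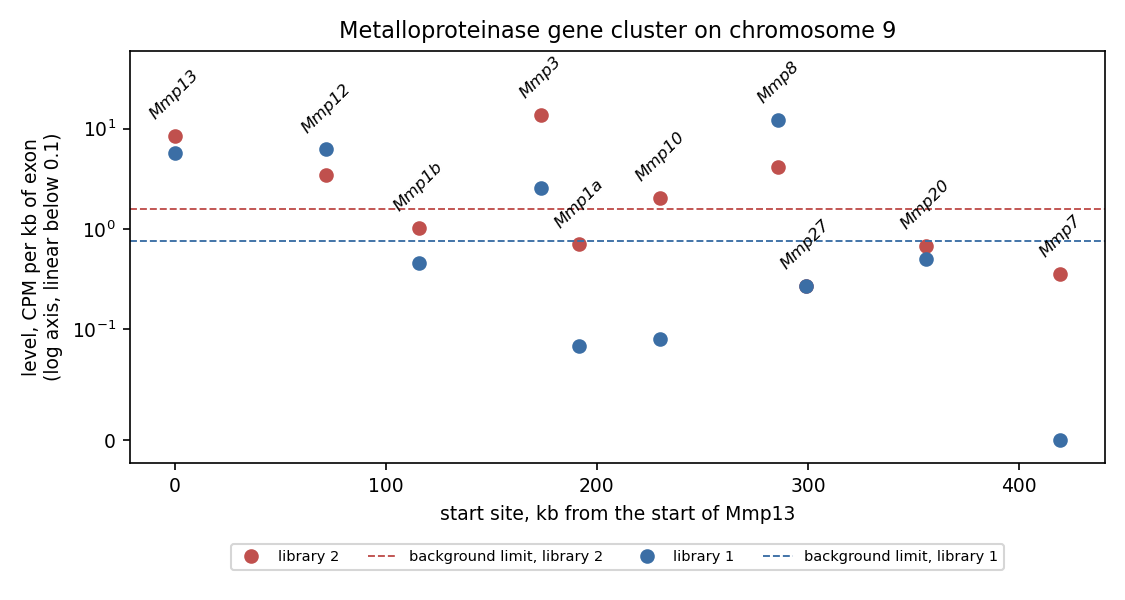
Level of the 10 MMP genes of the chromosome 9 cluster in CPM per kb of exon (log axis, linear below 0.1) against the distance of their start sites from that of Mmp13, with dashed background limits for each library. Mmp13, Mmp12, Mmp3 and Mmp8 lie above the limit in both libraries and Mmp10 in library 2, while Mmp1b, Mmp1a, Mmp27, Mmp20 and Mmp7 lie under it in both.

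Within the cluster, genes above background stood next to genes that were not. Of the cluster's genes that were not among the 10 studied, Mmp8, the collagenase known from neutrophils, was above background in both libraries. It was at 4.14 CPM per kb in library 2 and 12.3 in library 1. Mmp1a and Mmp1b, the mouse counterparts of interstitial collagenase, the little-studied Mmp27, Mmp20 of tooth enamel and Mmp7 of glandular epithelia were under the limit in both libraries. Mmp7 had 16 counts in library 2 and 0 in library 1, where a count of 0 allows up to 0.0429 CPM.

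The 3 inhibitor genes behaved in 3 ways. Timp1 encodes a soluble inhibitor that binds the precursor of MMP9 as well as active MMPs. Timp1 (ENSMUSG00000001131, chromosome X, 20870166 to 20874735) had 115 counts in library 2 and 532 in library 1, or 2.72 CPM (2.25 to 3.27) and 7.61 CPM (6.98 to 8.28). Its log2 ratio was -1.98 (-2.29 to -1.69), the lowest of the 10 genes. Because its exons span 888 bp, it ranked higher per kb than by counts, at 3.06 CPM per kb in library 2 and 8.57 in library 1. It lies wholly within Syn1 on the opposite strand without touching that gene's exons, and Syn1 had 168 and 245 counts.

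Timp2 encodes the inhibitor that links MT1-MMP to the precursor of MMP2. Timp2 (ENSMUSG00000017466, chromosome 11, 118301069 to 118355740, minus strand) was at 31.9 CPM in library 2, against 22.0 CPM in library 1, or 27.0 ± 6.97 CPM (SD, n = 2). The log2 ratio was 0.03 (-0.07 to 0.14), and edgeR's exact binomial test gave an adjusted p of 0.586. Its interval included 0. Mmp14 exceeded Timp2 per kb 2.12 times in library 2 (2.00 to 2.26) and 7.94 times in library 1 (7.54 to 8.37).

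Timp3 encodes a matrix-bound inhibitor that also blocks ADAM17, the enzyme that frees TNF. Timp3 (ENSMUSG00000020044, chromosome 10, 86300372 to 86349506) had 2736 counts in library 2 and 922 in library 1, or 64.7 and 13.2 CPM (39.0 ± 36.5 CPM, SD, n = 2). Its log2 ratio was 1.79 (1.69 to 1.90). Relative to Timp1, it was 2.59 times as high per kb in library 2 (2.15 to 3.15) and 0.189 times in library 1 (0.170 to 0.211), so the order of these inhibitors reversed. Timp3 lies within Syn3 on the opposite strand and shares 1733 of its 8144 bp of exon with it. Syn3 had 492 counts in library 2 and 365 in library 1, and reads from the shared stretch cannot be assigned where strand was not used in counting.

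By counts, the 7 MMP genes made up 67.7% of the counts of all 10 genes in library 2 (95% exact binomial interval 66.9 to 68.5) and 89.4% in library 1 (89.1 to 89.8), or 78.6% ± 15.4 (SD, n = 2). Per kb of exon the shares lay closer, at 73.5% and 81.1%. Without Timp3, the libraries lay closer still, at 85.7% in library 2 and 92.5% in library 1 by counts, and at 82.6% and 82.7% per kb. Without Mmp14, the share by counts was 51.2% in library 2 and 69.0% in library 1, so it stayed higher in library 1, while per kb it was 65.1% and 59.4%, the reverse order. Mmp14 by itself was 24.0% of the summed level per kb in library 2 and 53.5% in library 1, while Mmp3 was 18.9% and 3.02%, and Timp3 11% and 1.93%.

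**Figure D3:**
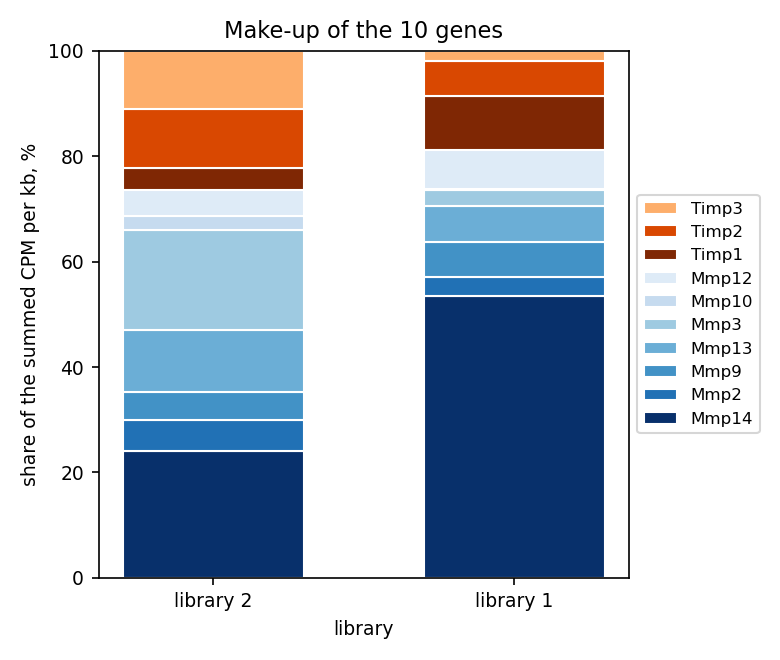
Share of each gene in the summed CPM per kb of the 10 genes in library 2 and library 1, with MMP genes in blue and inhibitor genes in orange to brown. Mmp14 takes 24.0% in library 2 and 53.5% in library 1, and Mmp3 and Timp3 take larger shares in library 2.

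Of the whole group, 3 of the 10 genes (Mmp3, Mmp10 and Timp3) were at least 2-fold higher in library 2, against 24.5% of all tested genes, and 4 (Mmp9, Mmp12, Mmp14 and Timp1) were at least 2-fold lower, against 12.6%. Mmp2, Mmp13 and Timp2 differed by less. With edgeR's exact binomial test at an adjusted p threshold of 0.05, those 7 genes were called, against 80.2% of 30373 tested genes, so their share was near that of genes at large. The largest adjusted p of the 7, 3.67e-36 by edgeR's exact binomial test, was that of Mmp10. Such p-values account for counting error within this pair of libraries and say nothing of a condition. The median log2 ratio of the 10 genes was 0.04, against 0.15 over all tested genes. Scaling by total counts moves every ratio up by about 0.50, and by it 2 of the 4 lower genes (Mmp14 and Timp1) remained at least 2-fold lower. The share of all tested genes that were lower by total counts is not given here, and the 12.6% holds for TMM scaling.

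**Figure D4:**
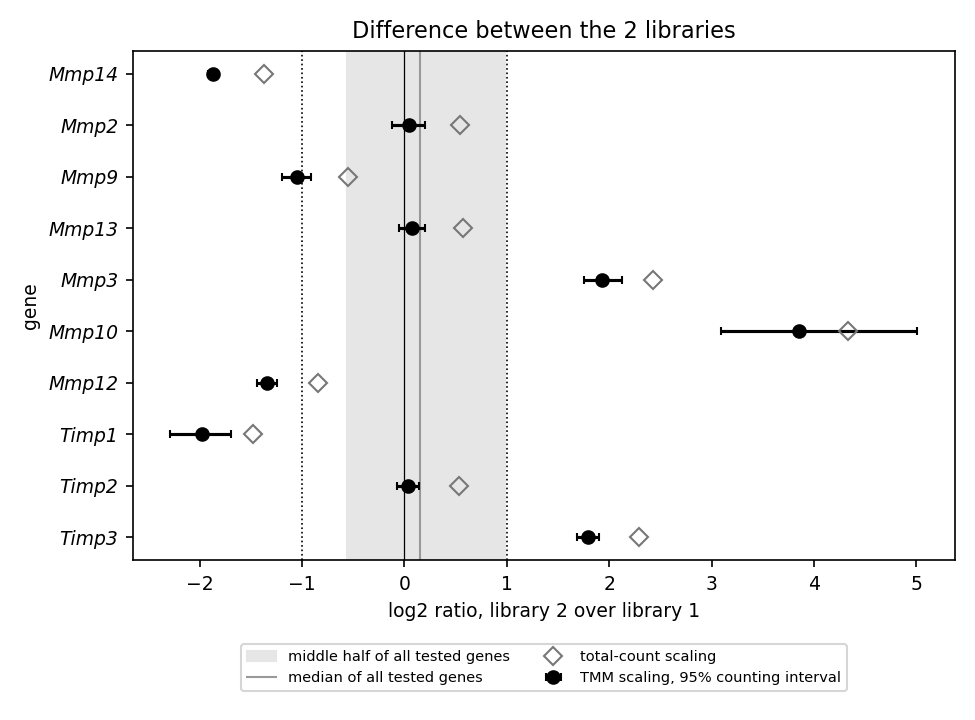
Log2 ratio of library 2 over library 1 for the 10 genes after TMM scaling (filled circles, with 95% counting intervals) and by total counts (open diamonds), over the interquartile range (grey band) and the median (grey line) of all tested genes. Dotted lines mark 2-fold. Mmp10, Mmp3 and Timp3 lie to the right of the band, and Timp1, Mmp14, Mmp12 and Mmp9 to the left by TMM scaling.

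The 7 MMP genes did not hold all of the family's RNA. Against 47.3% of protein-coding genes, 4 of 16 other MMP genes exceeded background in both libraries. Of these, Mmp19, Mmp25 and Mmp8 ranked 2nd, 3rd and 4th of the 23 MMP genes by mean level per kb, after Mmp14. In library 2 by itself, Mmp3 (13.7 CPM per kb) exceeded Mmp19 (9.03), and Mmp13 (8.52) exceeded Mmp25 (5.73) and Mmp8 (4.14). Mmp25 encodes a membrane-anchored MMP known from leukocytes and was at 30.4 CPM in library 2, against 118 CPM in library 1, a log2 ratio of -2.46. Mmp19 was at 31.9 and 67.8 CPM (log2 ratio -1.59), and Mmp8 at 10.0 and 29.9 CPM (-2.08). Mmp28, which encodes epilysin of keratinocytes, was also above background, at 14.2 and 8.28 CPM (log2 ratio 0.28). Of the 14 other MMP genes tested, 4 were at least 2-fold higher and 3 lower in library 2, against 24.5% and 12.6% of all tested genes. The 4 higher ones (Mmp1a, Mmp11, Mmp17 and Mmp21) were all within background. The 7 genes studied made up 62.2% of the summed level per kb of the family in library 2 and 53.0% in library 1. No gene of 5 further inhibitor genes (Timp4, Reck, Tfpi2, A2m and Pzp) was above background in either library. Of protein-coding genes, 50.4% were above it in library 2 and 56.2% in library 1.

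Most listed genes of MMP activation exceeded background. Furin, a convertase that cuts the prodomain of MT1-MMP inside the cell, was at 190 CPM in library 2, against 331 CPM in library 1 (log2 ratio -1.30). Plau, the urokinase that turns plasminogen into plasmin, was at 112 CPM in both libraries, which after TMM scaling gave a log2 ratio of -0.50. Its receptor gene Plaur was at 103 CPM in library 2, against 222 CPM in library 1 (-1.60). Of this list of 8 convertase and plasminogen genes, 6 exceeded background in both libraries, against 47.3% of protein-coding genes. In library 2, 1 was at least 2-fold higher and 2 lower, against 24.5% and 12.6% of all tested genes. The higher one, Pcsk5 (12.8 and 4.36 CPM, log2 ratio 1.05), was within background in both libraries. Plg, plasminogen itself, was not above background. Serpinb2, an inhibitor of urokinase that keratinocytes and macrophages make, reached 1946 CPM in library 2, against 168 CPM in library 1 (log2 ratio 3.03).

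ADAM and ADAMTS enzymes are relatives of the MMPs, and several are blocked by TIMP3. Of 11 such genes, 7 exceeded background in both libraries, against 47.3% of protein-coding genes. In library 2, 1 was at least 2-fold higher and 3 lower, against 24.5% and 12.6% of all tested genes. The higher one, Adamts5 (9.23 and 2.02 CPM, log2 ratio 1.69), was within background in both libraries. The median log2 ratio of the 11 genes was -0.79. Adam8, an enzyme of leukocytes, was at 204 CPM in library 2, against 273 CPM in library 1. Adamts1, which cuts proteoglycans, was at 257 and 97.5 CPM (log2 ratio 0.90 after TMM scaling), and Adam9 at 75.6 and 131 CPM (-1.30). Adam17 was at 85.3 and 105 CPM.

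Marker genes of several cell types differed between the libraries alongside the 10 genes. Of all tested genes, 24.5% were at least 2-fold higher in library 2 and 12.6% lower, to be set beside the counts that follow. Of 10 keratinocyte markers, 9 were at least 2-fold higher in library 2, and their summed level was 14308 CPM in library 2, against 4038 CPM in library 1. Of 9 Langerhans cell markers, 6 were at least 2-fold lower in library 2, with sums of 10564 and 19798 CPM. Highest of these markers were Cd74 (4067 CPM in library 2 and 7188 in library 1), Mfge8 (2118 and 6204) and H2-Ab1 (1953 and 3486). Cd207 (1052 and 1125 CPM, log2 ratio -0.60), Epcam (178 and 155 CPM, -0.30) and Cdh1 (793 and 481 CPM, 0.22) differed by less than 2-fold. Of 10 macrophage markers 6 were at least 2-fold lower in library 2 and 1 higher (1028 and 1563 CPM), and of 8 T cell markers 6 were lower (68.7 and 198 CPM). Above background in both libraries were 9 of these macrophage and 6 of these T cell markers, against 47.3% of protein-coding genes. Fewer markers of other cell types exceeded background in both libraries. These were 4 of 8 for neutrophils (sums of 616 CPM in library 2 and 311 in library 1), 2 of 10 for fibroblasts (139 and 159 CPM), 2 of 8 for mast cells (44.5 and 64.7 CPM), 1 of 8 for endothelium (55.0 and 89.5 CPM) and 1 of 6 for mural cells (40.0 and 18 CPM). Most of the neutrophil sum was S100a8 (165 CPM in library 2 and 63.6 in library 1) and S100a9 (425 and 182 CPM). The neutrophil genes Csf3r (15.2 and 56.3 CPM) and Mpo (3.17 and 5.62 CPM) went the other way. Of the fibroblast markers, 3 exceeded background in library 2 and 7 in library 1, against 50.4% and 56.2% of protein-coding genes. Their sums combine opposite moves, with 2 at least 2-fold higher and 4 lower in library 2. Col3a1 was at 8.66 CPM in library 2 and 42.0 in library 1, and Fbln1 at 12.9 and 1.47 CPM. Fcer1a had 0 counts in both libraries, and the mast cell gene Mcpt4 and the neutrophil gene Elane had 0 in library 1. A count of 0 allows up to 0.0710 CPM in library 2 and 0.0429 CPM in library 1. The part of these cell types in the levels of MMP and TIMP genes was not tested, and in bulk RNA fewer cells of a type cannot be told apart from less RNA per cell.

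**Figure D5:**
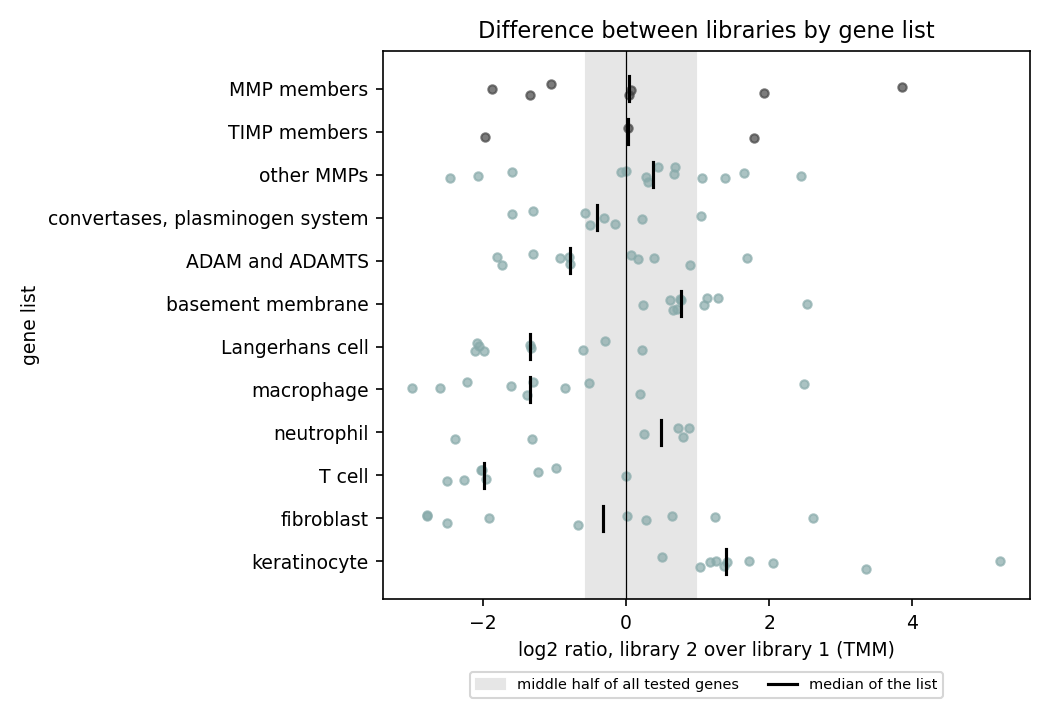
Log2 ratio of library 2 over library 1 (TMM scaling) of single genes by list, with the median of each list as a bar and the interquartile range of all tested genes as a grey band. Keratinocyte markers lie to the right and Langerhans cell, macrophage and T cell markers mostly to the left, while MMP and TIMP genes lie on both sides.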

How the data were processed

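The authors deposited whole-number counts per Ensembl gene for 2 libraries, not normalized. Per the submitters' processing notes, Trimmomatic, HISAT2, SAMtools and StringTie were used with GRCm38. Versions, annotation, strand and counting settings were not given in the sources used here. Per the labels' protocols, a stranded kit for low input was used, with 10 to 70 ng of RNA a library. The column without a number was assigned to the group only. An empty row and a row that repeats the total of each column were left out.

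Positions, symbols and exon lengths (union of exons, 55227 genes) came from GENCODE M21. CPM used total counts. Ratios used genes that reached 1 CPM in 1 library or more, TMM scaling and a prior count of 1, and the binomial test of edgeR 4.0.16 (R 4.3.3) with Benjamini-Hochberg adjustment. For large counts that test is a chi-square approximation. A quasi-likelihood test of library 2 against library 1 has no residual degrees of freedom. On simulated sampling noise for library 2 against library 1 (26379 genes), the test recovered 90 of 100 genes changed 2-fold and 27 of 100 changed by a factor of 1.2. Intervals are exact, cover counting error only, and take counts as independent.

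All 10 genes are named, and so are the 3 highest per kb above background of the lists of MMP relatives, except that some listed genes are not reported here. Genes within background, other listed genes and TATAAA were chosen after values or sequences were seen. The members, lists and background limit were chosen with earlier results of these data known.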

Additional observations from a re-analysis of the deposited data

How the results depend on the processing

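The 10 genes were recomputed with DESeq2 1.42.0 size factors, total counts, 2 other count filters, and a prior count of 5. Subtraction of background, which has no test, and the adjusted p of single genes at a dispersion of 0.04 were added after the data were seen. Of 69 log2 ratios under other settings, 6 reversed direction, all of Mmp2, Mmp13 or Timp2. The 69 include those at a dispersion of 0.04, which could not move because dispersion enters only the p-value. Mmp3, Mmp10 and Timp3 stayed at least 2-fold higher in library 2 (lowest log2 ratios 1.83, 3.44 and 1.69). For Mmp10 this leaves out background subtraction, which gave it no ratio. Its level in library 1, 0.0914 CPM per kb, lay under the median of the background genes, 0.221. The number of genes at least 2-fold lower in library 2 was 4 under each setting but total counts, where it was 2. Shares of all tested genes under these other settings are not given here, so these counts have no comparison with genes at large. Mmp2, Mmp13 and Timp2 had no stable direction. Their log2 ratios were -0.062, -0.030 and -0.070 with DESeq2 size factors, those of Mmp2 and Timp2 were -0.083 and -0.029 after background subtraction, Timp2 was at -0.00077 without a filter, and by total counts they were 0.54, 0.57 and 0.53 and past the test. At a dispersion of 0.04, 7 genes were still called, Mmp9 with an adjusted p of 0.0395 in edgeR's exact test. The share of all tested genes called at that dispersion is not given here, and the 80.2% above holds for a dispersion of 0. That count of 7 thus has no comparison with genes at large. The MMP share of counts, 78.6% on average, was 60.1% without Mmp14, 89.1% without Timp3, and 67.7% and 89.4% in library 2 and library 1 taken alone. Above background were 8 to 10 genes under the settings tried. No paired analysis was possible because there is 1 group. With 2 libraries, leaving out 1 leaves no spread. Depth limits Mmp10 (11 counts in library 1) most.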

Other observations

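Genes of the basement membrane, the sheet of matrix between epidermis and dermis that MMPs cut, were mostly higher in library 2. Of 10 genes, 9 exceeded background in both libraries, against 47.3% of protein-coding genes. In all, 4 were at least 2-fold higher, against 24.5% of all tested genes, and 0 lower, with a median log2 ratio of 0.76 against 0.15 over all tested genes. By edgeR's exact binomial test, which covers sampling noise alone, 10 of 10 were called, all higher, against 80.2% of all tested genes called in either direction. Of 10 keratinocyte markers, 9 were at least 2-fold higher in library 2, and their part in this was not tested. Col17a1, a collagen of the hemidesmosomes of basal keratinocytes, was at 1311 CPM in library 2, against 380 CPM in library 1. Lamb3, a laminin chain gene, was at 103 CPM in library 2, against 34.3 CPM in library 1 (log2 ratio 1.09).

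Genes of surface proteins that bind MMPs or TIMPs, and of related proteins, followed no common direction. Of 7 genes, 0 were at least 2-fold higher and 2 were lower in library 2, against 24.5% and 12.6% of all tested genes. Cd44, a hyaluronan receptor that can dock MMP9, was at 942 CPM in library 2, against 617 CPM in library 1, which after TMM scaling gave a log2 ratio of 0.11. Bsg, the MMP inducer EMMPRIN, was at 155 and 107 CPM (0.03). Cd63, a tetraspanin that binds TIMP1, was at 113 and 175 CPM (-1.12).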
